A study of Mus musculus with 12 samples.

Results

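Of the genes described here, all but 3 carry symbols of pore-forming and auxiliary subunits of potassium channels and of voltage-gated sodium and calcium channels. The 3 are the non-coding RNAs Kcnq1ot1, Kcnmb4os1 and Kcnmb4os2. All were chosen by symbol, as every gene whose annotated symbol began with Kcn, with Scn and a digit, or with Cacn. The classes of subunit used below were also taken from the symbol, and the function of each gene was not checked. There were 110 such genes among 17097 genes measured in sorted cells of the mouse small intestine. Each gene was represented by 1 probe set, the group of oligonucleotides that reads a transcript on the array, taken from those that list a single gene as the one whose mean across the arrays was highest. The 110 genes had 207 single-gene probe sets, and 59 of them had more than 1.

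The 12 Affymetrix arrays came from 6 sorted populations of primary, untreated small intestinal cells, defined by 3 levels of Mex3a (high, low and negative) within each of 2 levels of Lgr5 (high and low). Lgr5 is the receptor that marks intestinal stem cells at the crypt base, and Mex3a is an RNA-binding protein. Each population was sampled in both biological replicates, MR793 and MR820, so every group had 2 arrays. RNA was taken from 2000 cells a sample and amplified for 22 cycles before labelling. The strain, genotype, age and sex of the animals, and the reporters used for sorting, were not given in the sources used here; each population is named by its label alone.

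Ion channels set the membrane voltage and the calcium entry of a cell. In calcium channels an alpha1 subunit forms the voltage-gated pore, and alpha2-delta subunits raise the number of channels at the surface. Potassium channels repolarise the membrane or hold it negative at rest, and in crypt cells basolateral potassium channels provide the driving force for chloride secretion. Enteroendocrine cells, the hormone-secreting cells of the gut epithelium, are electrically excitable and release hormone on calcium entry, while tuft cells, its chemosensory cells, depolarise through a calcium-activated cation channel.

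One array stood apart from the rest, that of the Mex3a-high Lgr5-high population in MR793. Its correlation with the other arrays over all probe sets was 0.896 to 0.916, against 0.971 to 0.996 among those. On that array 81 of the 110 channel genes (73.6%) had their highest value, against 45% of all genes, and 6 (5.45%) had their lowest, against 29.6% of all genes. The labels also place the arrays on 3 strips: strip 1 held only Lgr5-high arrays, strip 3 only Lgr5-low arrays, and strip 2 both. As a check of the gates, Lgr5 itself was higher in the Lgr5-high gate by 2.61 ± 0.23 (log2, standard error; limma, adjusted p = 0.000843). The Mex3a probe set read 5.44 to 6.35 over the 12 arrays, with the highest value on the array that stood apart, so the Mex3a gate was not checked by this gene's own signal. Where nothing else is said, a change is a difference of log2 RMA values with its standard error from limma over all 17097 genes and all 12 arrays, and a gene was called at a Benjamini-Hochberg adjusted p under 0.05.

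Of the 110 channel genes, 85 matched a promoter window from RefSeq (build GRCm38.p6). The 250 bases before the annotated start are shown for Kcnd3, which had a large change with the Mex3a gate that was called under the replicate block, and for Scn2b, whose values did not overlap between the Lgr5 gates. The windows lie at chr3:105451640-105451889 and chr9:45117626-45117875, both on the plus strand, and each ends just before the annotated gene. They are written 5′ to 3′, and capitals mark a match to a searched motif.
Kcnd3: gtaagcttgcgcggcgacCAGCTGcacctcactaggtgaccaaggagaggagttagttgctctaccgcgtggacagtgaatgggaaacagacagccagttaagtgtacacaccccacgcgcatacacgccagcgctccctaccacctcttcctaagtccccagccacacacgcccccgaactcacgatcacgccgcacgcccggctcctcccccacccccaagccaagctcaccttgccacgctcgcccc
Scn2b: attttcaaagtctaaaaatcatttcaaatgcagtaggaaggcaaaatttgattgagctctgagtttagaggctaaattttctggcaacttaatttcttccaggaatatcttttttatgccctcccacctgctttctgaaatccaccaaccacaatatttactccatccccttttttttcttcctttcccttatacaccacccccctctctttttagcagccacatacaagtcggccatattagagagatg
The motifs searched on both strands were CAGATG and CAGCTG, E-box sequences of the kind that basic helix-loop-helix factors bind, and the TATA-box core TATAAA. They were found in 14.4%, 13% and 12.4% of 32851 windows of the same length. Kcnd3 held 1 CAGCTG, and the Scn2b window held none of these letters. The G and C share of the Kcnd3 window (62.8%) lay above the median of all windows (52.4%), and that of Scn2b (38.4%) lay below it.

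Most channel genes gave a low signal. The medians of all probe sets on an array were 5.83 to 6.04, and 30 of the 110 genes (27.3%) lay above the array median on all 12 arrays, 27 on some, and 53 (48.2%) on none. Of all 17097 genes, 52.3% lay above it on all 12 arrays and 29.9% on none. Between 35 and 52 channel genes lay above the median on a given array, with the 52 on the array that stood apart. The count on all 12 arrays was 17 or 12 when the median was taken over single-gene probe sets or over 1 probe set a gene. By class, the genes above the median on all 12 arrays were 5 of 28 voltage-gated potassium subunits, 4 of 15 inward rectifiers, 3 of 9 tandem-pore (K2P) channels, 3 of 7 calcium- or sodium-activated potassium channels, 2 of 15 potassium auxiliary subunits, 3 of 8 sodium alpha subunits, 1 of 3 sodium beta subunits, 2 of 9 calcium alpha1 subunits, 6 of 13 calcium auxiliary subunits and 1 of 3 non-coding RNAs. Values of different probe sets do not rank transcript abundance, so further values are compared only within a gene.

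**Figure D1:**
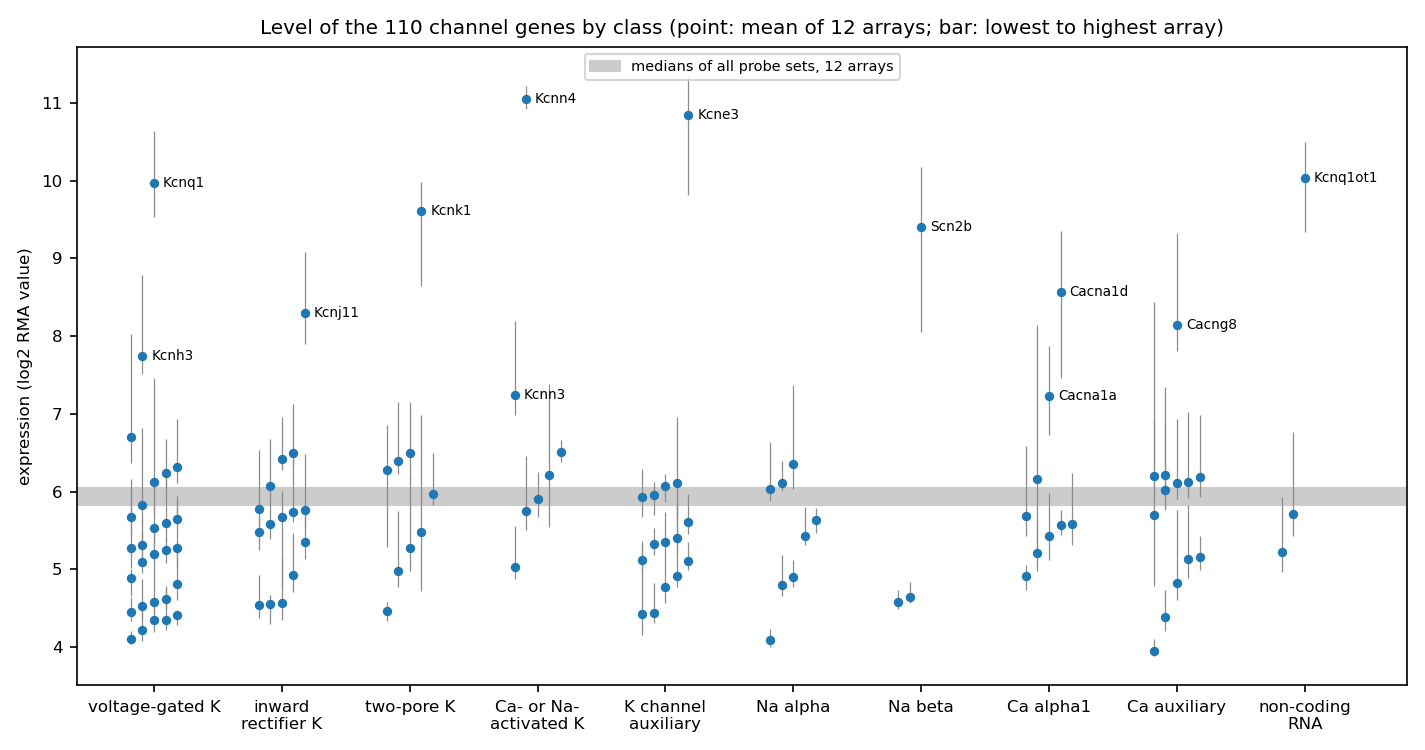
Mean log2 RMA value of each of the 110 channel genes over 12 arrays (points) with the lowest and highest array (bars), by class of channel. The grey band spans the medians of all probe sets on the 12 arrays, 5.83 to 6.04; 53 genes lay below the median on every array. Genes with a mean above 7 are named.

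Of the 12 channel genes with the highest means, 4 are described next; with all 12 arrays none of the 4 was called between Mex3a gates. Kcnn4, the intermediate-conductance calcium-activated potassium channel, read 10.93 to 11.22 over all 12 arrays. Kcne3, the auxiliary subunit that pairs with the Kcnq1 pore in the basolateral membrane, read 10.41 to 11.35 on 11 arrays and 9.81 on the array that stood apart. On those 11 arrays it read 11.15 to 11.35 in Lgr5-high and 10.41 to 11.10 in Lgr5-low cells. Its Lgr5-high minus Lgr5-low change was 0.33 with all 12 arrays, not called, and 0.56 without the array that stood apart. Kcnq1 read 9.53 to 10.64. The tandem-pore channel Kcnk1 read 9.44 to 9.98 on 11 arrays and 8.65 on the one that stood apart. Without the array that stood apart, the median range of a channel gene over the remaining 11 arrays was 0.339, against 0.441 for all genes. With it, these medians were 0.747 and 0.836. A range above 1 was reached by 34 channel genes on 12 arrays and by 10 on 11 arrays, which is 9.09% of them against 9.71% of all genes. Ranges above 2 on 11 arrays were those of Cacna2d1 (3.66), Cacna1h (2.99), Kcnk6 (2.27) and Scn2b (2.12).

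Within the Lgr5-low gate, the Mex3a-high cells had higher levels of 3 channel genes than the Mex3a-negative cells, and 0 were called lower. They are a calcium channel alpha2-delta subunit, a T-type calcium channel pore and the large-conductance calcium-activated potassium channel. The 3 called genes are 2.73% of 110, and 1.73% of all genes tested were called in this comparison, 1.71% as higher and 0.0117% as lower. The median change of the channel genes was 0.04, and that of all genes -0.01. In bulk populations like these, more cells of a type and more RNA per cell cannot be told apart.

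Cacna2d1 encodes alpha2-delta-1, which raises the surface number of high-voltage-activated calcium channels. In the Lgr5-low gate it read 8.44 and 8.18 in Mex3a-high cells (MR793 and MR820), 6.40 and 5.37 in Mex3a-low cells, and 4.92 and 4.82 in Mex3a-negative cells. In the Lgr5-high gate it read 5.76 and 5.05, 4.78 and 4.82, and 4.98 and 4.95 in the same order. Both Mex3a-high Lgr5-low arrays lay above every other array. The Mex3a-high minus Mex3a-negative change in the Lgr5-low gate was 3.44 ± 0.32 (adjusted p = 0.000365), and it was 3.52 in MR793 and 3.36 in MR820. Against Mex3a-low cells the change was 2.42 ± 0.32 (adjusted p = 0.00713). The Mex3a-negative values lay below the array median. The call against Mex3a-low cells was lost without the Mex3a-high Lgr5-low array of MR793 (adjusted p = 0.0909).

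Cacna1h encodes Cav3.2, a T-type pore that opens near the resting voltage. It read 8.15 and 8.06 in Mex3a-high Lgr5-low cells, 6.38 and 5.97 in Mex3a-low and 6.16 and 5.16 in Mex3a-negative cells of that gate. In the Lgr5-high gate it read 6.40 and 5.72, 5.57 and 5.39, and 5.63 and 5.29. The Mex3a-high Lgr5-low arrays were again the highest of all. The change against Mex3a-negative cells was 2.44 ± 0.34 (adjusted p = 0.00432), and without the Mex3a-high Lgr5-low array of MR793 its adjusted p was 0.0526. Against Mex3a-low cells it was 1.93 ± 0.34 (adjusted p = 0.0331). This call was lost without any single array of the Mex3a-low Lgr5-high, Mex3a-negative Lgr5-high, Mex3a-high Lgr5-low or Mex3a-low Lgr5-low populations (adjusted p from 0.0753 to 0.407). Cacna2d1 and Cacna1h were the 2 channel genes called in that comparison (1.82% of 110, against 0.889% of all genes).

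Kcnma1 encodes the pore of the large-conductance potassium channel, which opens on both calcium and depolarisation. It read 7.39 and 7.24 in Mex3a-high Lgr5-low cells, 6.11 and 6.16 in Mex3a-low and 6.00 and 5.66 in Mex3a-negative cells. In the Lgr5-high gate it read 6.87 and 6.00, 6.17 and 5.91, and 5.55 and 5.59. The change against Mex3a-negative cells in the Lgr5-low gate was 1.49 ± 0.27 (adjusted p = 0.0205). It was lost without any single array of the Mex3a-high Lgr5-low, Mex3a-negative Lgr5-low or Mex3a-negative Lgr5-high populations (adjusted p from 0.0525 to 0.206). Its other probe set gave 0.03 ± 0.12, and the mean of both gave 0.76 (adjusted p = 0.0993).

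**Figure D2:**
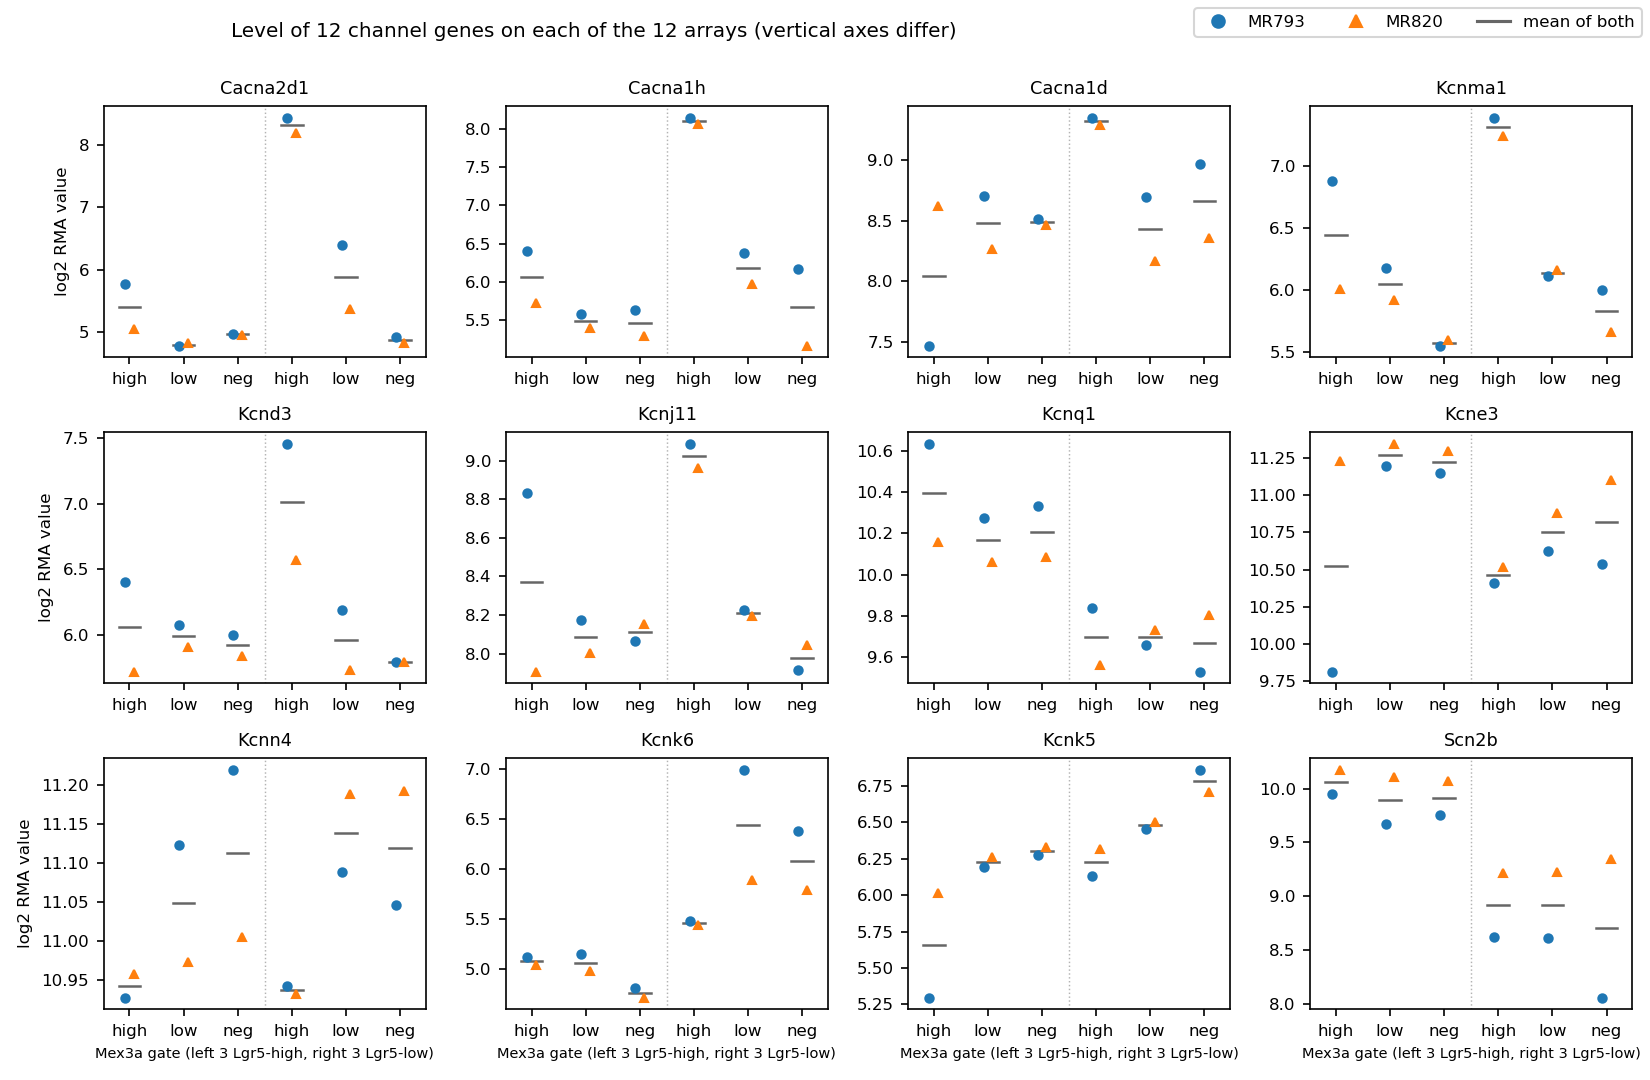
Log2 RMA values of 12 channel genes on each array, by Mex3a gate, with the Lgr5-high populations left and the Lgr5-low populations right of the dotted line. Circles are MR793, triangles MR820 and lines the mean of both; vertical axes differ between genes. Cacna2d1, Cacna1h and Kcnma1 are highest on both Mex3a-high Lgr5-low arrays, and Scn2b and Kcnq1 are higher on every Lgr5-high array than on any Lgr5-low array.

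Other excitability genes had positive changes that did not pass the test with all 12 arrays. Kcnd3, the Kv4.3 pore of A-type current, read 7.46 and 6.57 in Mex3a-high Lgr5-low cells and 5.79 and 5.79 in Mex3a-negative cells. Its change was 1.22 ± 0.31 (adjusted p = 0.131). With the replicate as a block its adjusted p was 0.0368, within a range of 0.00788 to 0.962 over all alternatives. Kcnj11, the Kir6.2 pore of the ATP-sensitive potassium channel, read 9.09 and 8.96 against 7.91 and 8.04. Its change was 1.05 ± 0.27 (adjusted p = 0.142). Abcc8, the sulphonylurea receptor that completes that channel, had a change of 1.34 ± 0.32 (adjusted p = 0.0928). Cacna1a, the P/Q-type calcium pore, had 0.90 ± 0.21 (adjusted p = 0.088). Cacna1d, an L-type pore, read 9.36 and 9.30 against 8.97 and 8.36 and had 0.66 ± 0.38 (adjusted p = 1). In the other direction the tandem-pore channel Kcnk5 read 6.13 and 6.32 against 6.86 and 6.71, a change of -0.56 ± 0.23 (adjusted p = 0.601). Kcnk10, of the same class, read 6.22 and 6.39 against 7.16 and 6.60, a change of -0.57 ± 0.23 (adjusted p = 0.595). Kcnk6 read 5.48 and 5.44 against 6.38 and 5.79, a change of -0.62 ± 0.31 (adjusted p = 0.911). At an unadjusted p under 0.05 there were 8 channel genes (7.27% of 110, against 6.7% of all genes), with 6 higher and Kcnk5 and Kcnk10 lower. The potassium auxiliary subunit Kcnab2 and the tandem-pore channel Kcnk13 had the most positive changes of their classes, 0.17 ± 0.13 and 0.15 ± 0.25. Both lay below the array median on every array. The Nav1.6 sodium pore Scn8a, with the highest mean of the sodium alpha subunits, had -0.04 ± 0.31. None of these was called (adjusted p = 1 for each). Kcnh3 and Kcnn3 had changes of 0.04 ± 0.34 and -0.06 ± 0.31 (adjusted p = 1 for both).

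The array that stood apart is not part of the Lgr5-low gate, but its difference from its MR820 partner widened the shared spread. Leaving out either array of that pair takes this difference out of the spread. The median residual standard deviation of the channel genes was 0.206 with the array that stood apart and 0.094 without it. Without it, 8 channel genes were called in this comparison, against 5.29% of all genes. They were Cacna2d1, Cacna1h, Kcnma1, Kcnd3 (adjusted p = 0.0262), Kcnj11 (0.000859), Cacna1a (0.00765) and the G-protein-gated rectifier Kcnj3 (0.0317) as higher, and Kcnk5 (0.0191) as lower.

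In the Lgr5-high gate no channel gene was called in any of the comparisons between Mex3a gates, and neither was any other gene (0% of 17097). At an unadjusted p under 0.05, the comparison of Mex3a-high with Mex3a-negative cells held 3 channel genes (2.73% of 110, against 3.87% of all genes). In Mex3a-high cells Kcnma1 and Kcna1 were higher and Kcnk5 lower. That of Mex3a-high with Mex3a-low cells held 3 (2.73%, against 3.63% of all genes): Kcnk1 and Kcnk5 as lower and Kcnu1 as higher. Kcnk1 read 8.65 and 9.74 (MR793, the array that stood apart, and MR820) against 9.98 and 9.81. Kcnk5 read 5.295 and 6.015 against 6.196 and 6.260, and Kcnu1 5.56 and 5.14 against 4.91 and 5.09. The other probe sets of Kcnk1 and Kcnk5 had higher means in Mex3a-high cells (8.64 against 8.47, and 6.33 against 6.16). The comparison of Mex3a-low with Mex3a-negative cells held 0, against 0.462% of all genes. Kcnma1 had a change of 0.87 ± 0.27 between Mex3a-high and Mex3a-negative cells (adjusted p = 0.505), made of 1.33 in MR793, the array that stood apart, and 0.41 in MR820. In the Lgr5-low gate, no channel gene was called between Mex3a-low and Mex3a-negative cells (0.0468% of all genes were called). At an unadjusted p under 0.05 that comparison held 1 channel gene (0.909% of 110, against 1.18% of all genes), Cacna2d1, with a change of 1.02.

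Whether the change with Mex3a differed between the Lgr5 gates was tested as an interaction. It was called for 1 channel gene, Cacna2d1 (0.909% of 110, against 0.398% of all genes). Its Mex3a-high minus Mex3a-negative change was 3.44 in the Lgr5-low gate and 0.44 in the Lgr5-high gate, a difference of 3.00 ± 0.45 (adjusted p = 0.0226). The call was lost without any single array of the Mex3a-low Lgr5-high, Mex3a-negative Lgr5-high, Mex3a-high Lgr5-low or Mex3a-negative Lgr5-low populations (adjusted p from 0.0638 to 0.146), while the difference stayed between 2.87 and 3.12. For Cacna1h the difference was 1.84 ± 0.48 (adjusted p = 0.34), and for Kcnma1 it was 0.62 ± 0.38 (adjusted p = 0.865).

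**Figure D3:**
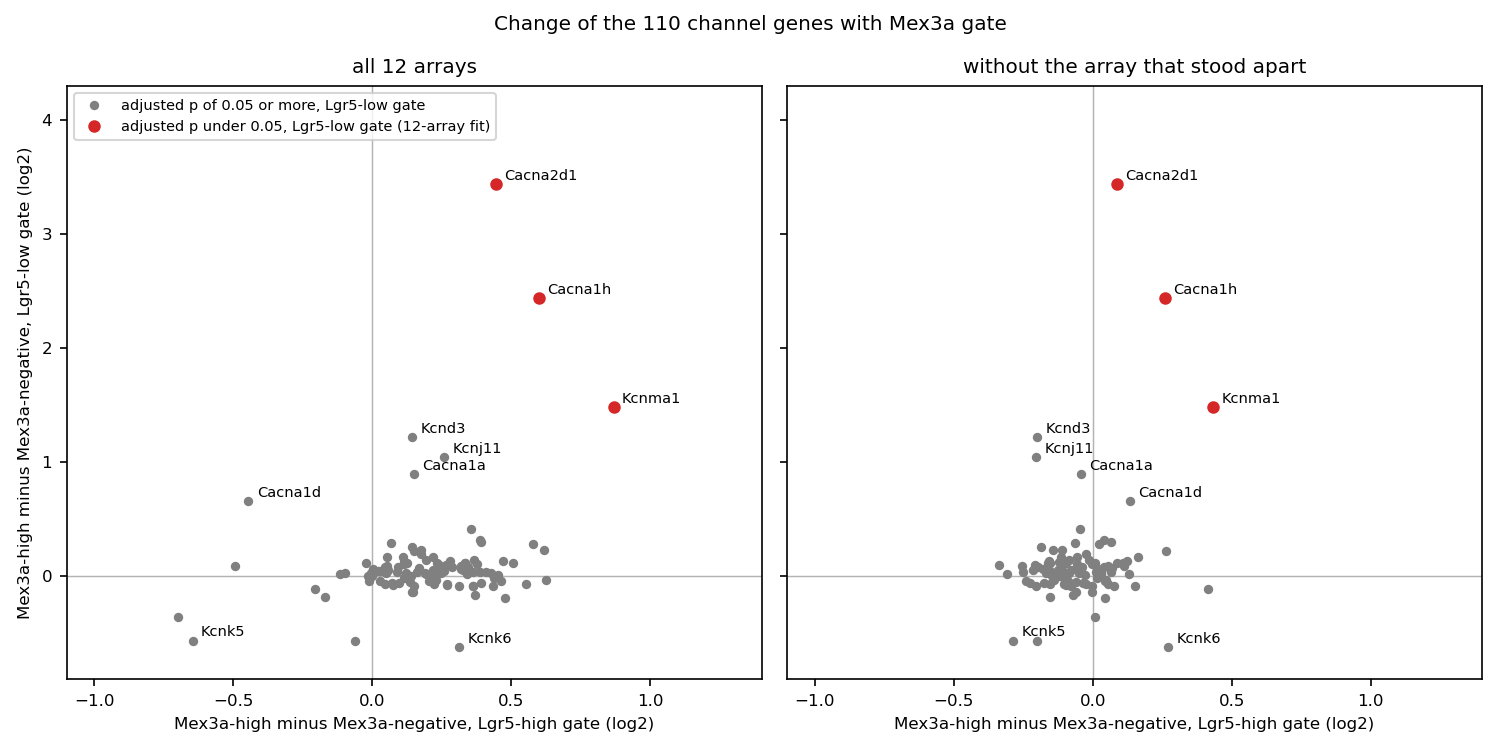
Mex3a-high minus Mex3a-negative change (log2) of each of the 110 channel genes in the Lgr5-high gate (horizontal) and in the Lgr5-low gate (vertical), over all 12 arrays (left) and without the array that stood apart (right). Red points were called in the Lgr5-low gate over 12 arrays: Cacna2d1 at 3.44, Cacna1h at 2.44 and Kcnma1 at 1.49. With all 12 arrays 96 genes lay right of 0, and without the array that stood apart 38 did.

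Further channel genes were called through other probe sets. When each of the 28898 single-gene probe sets was fitted on its own, an alternative chosen after the data were seen, 13 of the 207 channel probe sets (6.28%) were called between Mex3a-high and Mex3a-negative cells in the Lgr5-low gate, all higher. Of all probe sets, 1.52% were called. The 13 belonged to 9 genes (8.18% of 110, against 2.04% of all genes). For 6 of these, Cacna1a, Cacna1c, Cacna2d2, Kcnd3, Scn2a and Scn3a, the probe set with the highest mean was not called and another probe set was. Against Mex3a-low cells the probe set fit called 11 probe sets (5.31%, against 0.844% of all) of 8 genes (7.27%, against 1.12%). Between the Lgr5 gates it called 7 (3.38%, against 1.12%) of 6 genes (5.45%, against 1.53%). With the strip as a block none of these 7 was called, with an adjusted p of 0.37 for Scn3a, 0.675 for 1 probe set of Cacna2d1 and 1 for the others. Between Mex3a-low and Mex3a-negative cells of the Lgr5-low gate it called 0, against 0.0242% of all probe sets and 0.0351% of all genes.

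Scn3a, the Nav1.3 sodium pore, had the largest such difference. Its second probe set read 7.04 and 6.61 in Mex3a-high Lgr5-low cells, 5.14 and 4.40 in Mex3a-low, and 4.06 and 4.10 in Mex3a-negative cells, and 3.95 to 4.24 over the Lgr5-high arrays. The change was 2.74 ± 0.22 (adjusted p = 0.000154 over all probe sets), while the probe set with the higher mean gave 0.17 ± 0.12. For Cacna1a, 2 probe sets gave 2.48 ± 0.22 and 2.73 ± 0.31 (adjusted p = 0.000287 and 0.00122). The first of these read 8.80 and 8.68 in Mex3a-high against 6.17 and 6.35 in Mex3a-negative cells. For Cacna2d2, which encodes alpha2-delta-2, a probe set rose by 2.59 ± 0.28 (adjusted p = 0.000895) from 5.72 and 5.33 to 8.20 and 8.03, while its brightest probe set gave 0.13 ± 0.25.

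The remaining genes had smaller or dimmer signals. A probe set of Cacna1c, the Cav1.2 L-type pore, rose by 1.43 ± 0.12 (adjusted p = 0.000223), from 4.64 and 4.50 to 5.93 and 6.07. A probe set of Scn2a, the Nav1.2 pore, rose by 1.14 ± 0.17 (adjusted p = 0.00882), from 4.44 and 4.41 to 5.75 and 5.37, and its other 3 probe sets gave changes of -0.05 to 0.07. For Kcnd3 the called probe set gave 0.73 ± 0.07 (adjusted p = 0.000644), from 4.247 and 4.26 to 4.945 and 5.015. These values lay below the array median. All 3 probe sets of Cacna2d1 were called, with changes of 3.44, 0.87 and 0.65. Those with changes of 0.87 and 0.65 lay below the array median on every array, reading at most 5.38 and 4.65. The Lgr5-low arrays of Mex3a-low cells lay between the other Lgr5-low populations for Scn3a, Cacna2d2 and both Cacna1a probe sets. In the interaction between the gates, 6 channel probe sets of 5 genes were called (2.9% of 207, against 0.429% of all probe sets), among them those of Scn3a (2.55 ± 0.30, adjusted p = 0.00797) and Cacna1a (1.97 ± 0.31, adjusted p = 0.0308). By gene these were 4.55% of 110, against 0.591% of all genes.

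**Figure D4:**
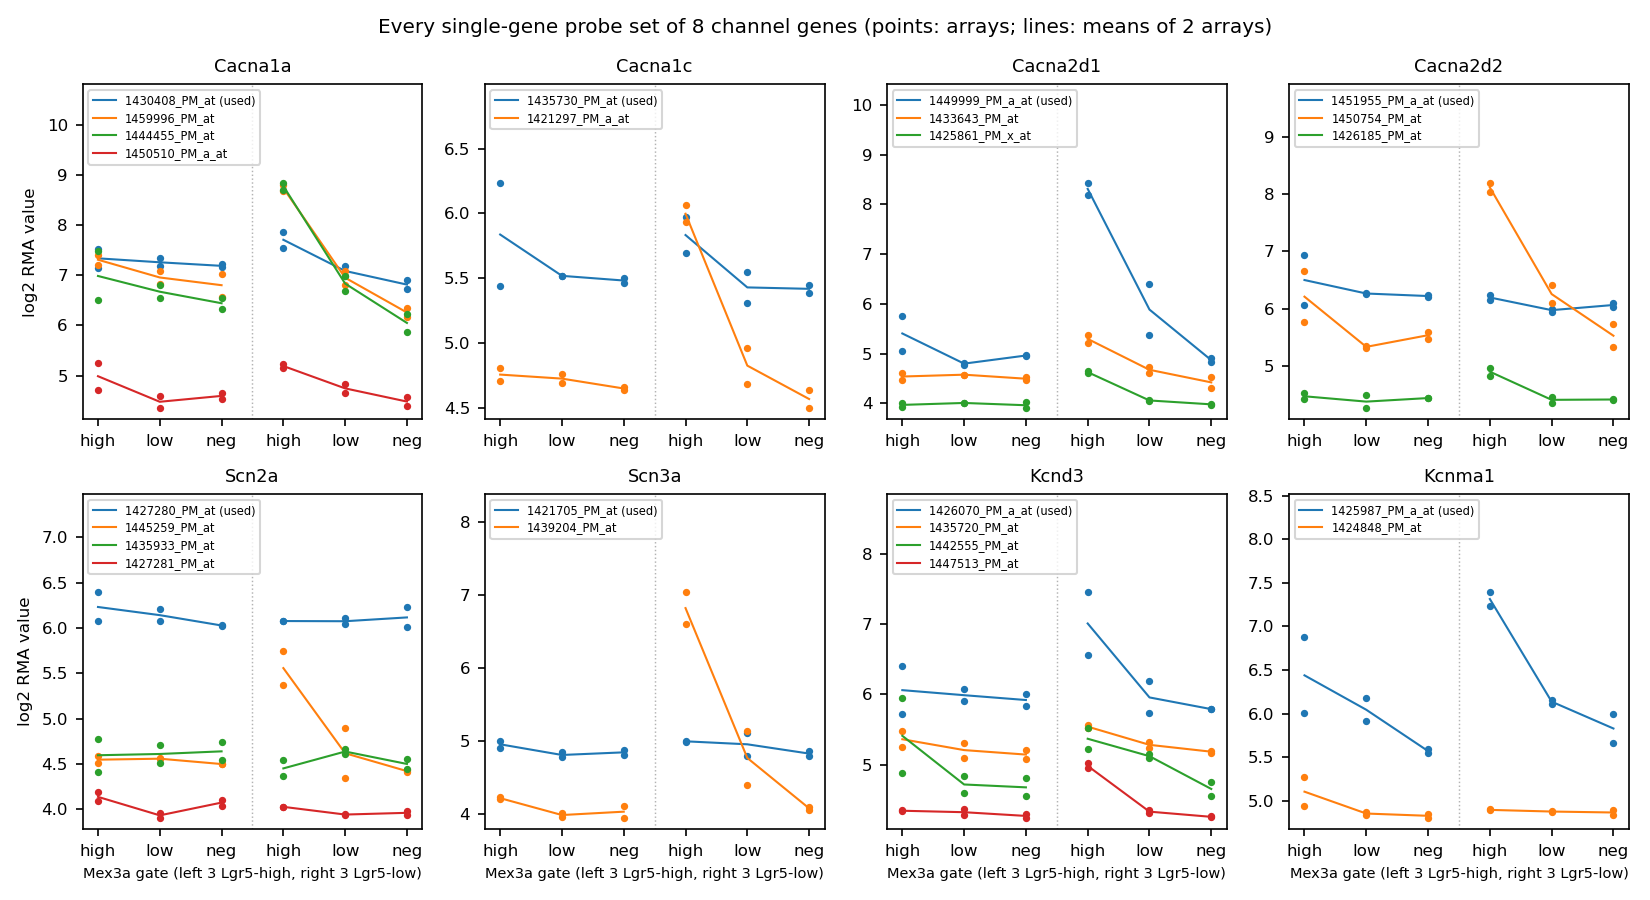
Log2 RMA values of every single-gene probe set of 8 channel genes by Mex3a gate, with Lgr5-high populations left and Lgr5-low populations right of the dotted line; points are arrays and lines join means of 2 arrays. The probe set used for the gene is marked. For Scn3a, Cacna2d2 and Cacna1a, a probe set with a lower mean rose more from Mex3a-negative to Mex3a-high Lgr5-low cells than the one used.

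Between the Lgr5 gates, averaged over the Mex3a gates, 4 channel genes were called (3.64% of 110, against 1.38% of all genes; 1.13% of all genes were called lower and 0.252% higher in Lgr5-high cells). Cacna2d1, Cacna1h and the tandem-pore potassium channel Kcnk6 were lower in Lgr5-high cells, and the non-coding RNA Kcnq1ot1, transcribed within Kcnq1 and known for imprinting, was higher. The changes were -1.30 ± 0.18 for Cacna2d1 (adjusted p = 0.00875), -0.98 ± 0.20 for Cacna1h (adjusted p = 0.0479), -1.02 ± 0.18 for Kcnk6 (adjusted p = 0.0281) and 0.67 ± 0.12 for Kcnq1ot1 (adjusted p = 0.0281). With the strip as a block no channel gene was called. The changes were then -1.12, -1.16, -0.70 and 0.68 in that order, with adjusted p of 0.615 for Cacna2d1 and 1 for the others. Within strip 2, the Mex3a-high pair of MR820 gave -3.14, -2.34, -0.40 and 0.73. Strip 1 and strip 3 each held a single Lgr5 gate and gave no value. For Cacna2d1 and Cacna1h the arrays of the Lgr5 gates overlapped, and the size of the difference varied with the Mex3a gate. Cacna2d1 means (Lgr5-high, then Lgr5-low) were 5.41 and 8.31 in Mex3a-high cells, 4.80 and 5.89 in Mex3a-low, 4.96 and 4.87 in Mex3a-negative. Those of Cacna1h were 6.06 and 8.11, 5.48 and 6.18, and 5.46 and 5.66 in that order.

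Of the 4 calls, 3 also depended on single arrays. Those of Cacna1h, Kcnk6 and Kcnq1ot1 were each lost without any single array of the Mex3a-low Lgr5-high, Mex3a-negative Lgr5-high or Mex3a-high Lgr5-low populations, or without the Mex3a-negative Lgr5-low array of MR793. For Cacna1h and Kcnq1ot1 this also held for either Mex3a-low Lgr5-low array. The adjusted p without these arrays ran from 0.0827 to 0.182 for Cacna1h, from 0.0859 to 0.12 for Kcnk6 and from 0.0565 to 0.13 for Kcnq1ot1. The count of channel genes was 1 without any single array of the Mex3a-low Lgr5-high, Mex3a-negative Lgr5-high or Mex3a-high Lgr5-low populations or the Mex3a-negative Lgr5-low array of MR793. It was 2 without either Mex3a-low Lgr5-low array, 10 without the array that stood apart (against 5.12% of all genes) and 61 without its partner of MR820 (55.5% of 110, against 54.5% of all genes).

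For 7 channel genes the 6 Lgr5-high arrays did not overlap with the 6 Lgr5-low arrays, 6.36% of 110 against 3.04% of all genes. Of these, 6 were higher and 1 lower in Lgr5-high cells, and the shares of all genes were 1.3% and 1.74%. Kcnk6 was lower, with 4.72 to 5.15 (median 5.01) in Lgr5-high cells against 5.44 to 6.99 (median 5.84) in Lgr5-low cells. Scn2b, a sodium channel beta subunit, was higher, with 9.68 to 10.18 (median 10.01) against 8.06 to 9.34 (median 8.92). Its change was 1.11 ± 0.24 (adjusted p = 0.0612). With the replicate as a block the adjusted p was 0.00748, and over the alternatives it ranged from 0.00605 to 1. All 3 of its probe sets gave a positive change, of 1.11, 1.00 and 0.82.

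Kcnq1, the pore that pairs with Kcne3, read 10.06 to 10.64 (median 10.22) against 9.53 to 9.84 (median 9.70). Its change was 0.57 ± 0.12 (adjusted p = 0.0646), with 0.0462 under the replicate block and 0.000578 to 1 over the alternatives. Kcnq1ot1 read 10.21 to 10.50 (median 10.38) against 9.34 to 9.92 (median 9.73). Its 6 probe sets gave changes of 0.31 to 0.67, and the mean of them gave 0.52 (adjusted p = 0.175). Kcnq1ot1 lies inside Kcnq1 on the annotation, and the sources used here do not say whether the labelling kept strands apart. The other non-overlapping genes were Cacng8, Kcne1l and Kcnj9, all higher in Lgr5-high cells, with changes of 0.39, 0.19 and 0.28 that were not called. Their gates nearly touched. The lowest Lgr5-high and highest Lgr5-low values were 8.092 and 8.06 for Cacng8, 4.41 and 4.41 for Kcne1l, and 6.0 and 5.993 for Kcnj9. All 3 read highest on the array that stood apart (9.33, 4.822 and 6.681), and Kcne1l lay below the median on every array. Within strip 2 the Mex3a-high pair gave 0.96 for Scn2b and 0.60 for Kcnq1.

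Of 40 related genes of membrane excitability and ion transport, 32 were measured. Between Mex3a-high and Mex3a-negative cells of the Lgr5-low gate, 3 were called higher and 0 lower, while 1.73% of all genes were called. The median change over the 32 was 0.09. Trpm5, the calcium-activated cation channel of tuft cells, rose by 5.18 ± 0.38 (adjusted p = 8.82e-05). It is also counted among the tuft markers below. Itpr2, an inositol trisphosphate receptor that releases calcium from stores, rose by 2.84 ± 0.23 (adjusted p = 0.000161). Atp2a3, the SERCA3 calcium pump that refills them, rose by 2.33 ± 0.22 (adjusted p = 0.000425). Cftr, the apical chloride channel, and Slc12a2, the basolateral chloride loader, had changes of -0.75 and 0.04 that were not called. Between the Lgr5 gates 2 of the 32 were called, against 1.38% of all genes. These were Trpm5 and Atp2a3, both lower in Lgr5-high cells. With the strip as a block their changes were -1.82 and -1.45, with adjusted p of 0.318 and 0.34.

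For Trpm5 the replicate block changed 3 further results. In the Lgr5-high gate its Mex3a-high minus Mex3a-negative change was 2.33 ± 0.38 (adjusted p = 0.337, with 0.0256 under the block and 0.000394 to 0.766 over the alternatives). In the Lgr5-low gate its Mex3a-low minus Mex3a-negative change had an adjusted p of 0.075, with 0.0081 under the block and up to 0.857 over the alternatives. The interaction between the gates was 2.85 ± 0.54 (adjusted p = 0.0788, with 0.00602 under the block and 0.00412 to 0.414 over the alternatives).

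Markers of other cell types moved with these comparisons. Between Mex3a-high and Mex3a-negative cells of the Lgr5-low gate, 16 of 18 enteroendocrine markers and 11 of 11 measured tuft markers were called higher, with median changes of 4.00 and 5.18. The summed enteroendocrine level (log2 of the summed linear values) was 15.1 and 14.7 in Mex3a-high, 14.1 and 12.9 in Mex3a-low and 10.8 and 10.4 in Mex3a-negative cells of that gate, and 10.2 to 12.5 in the Lgr5-high populations. The summed tuft level was 14.3 and 14.3, 12.4 and 11.3, and 9.19 and 9.21, and 8.97 to 11.3 in the Lgr5-high populations. Of 11 measured enteric neuron markers 4 were called higher (Ret, Nefl, Nefm and Snap25), with a sum of 10.2 and 9.96 against 9.08 and 9.02. Of the markers on that list without a call, Tubb3 rose by 1.35 ± 0.29 (adjusted p = 0.0608). The others had changes of -0.100 to 0.145. Among those, the neuronal RNA-binding genes Elavl3 and Elavl4 read 6.24 and 6.06, and 5.23 and 5.17, in Mex3a-high cells, against 6.30 and 6.03, and 5.13 and 5.07, in Mex3a-negative cells.

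Of the other lists, 3 of 4 Paneth markers, 2 of 10 immune markers and 1 of 7 smooth muscle and interstitial cell markers (Kit) were called higher. The immune markers called were Ptprc (1.83 ± 0.19) and Lyz2 (2.165 ± 0.41). Lyz2 read 9.97 and 11.7 in Mex3a-negative Lgr5-low cells and 12.5 to 13.1 on every other array. The immune markers without a call had changes from -0.056 (Itgam) to 1.10 (Gzma). For enterocyte (10 measured), stem cell (8), goblet (6), enteric glia (4) and endothelial and fibroblast (8) markers, 0 were called. Between the Lgr5 gates, 13 of 18 enteroendocrine and 10 of 11 tuft markers were called lower and 6 of 8 stem cell markers higher in Lgr5-high cells. The part of these cell types in the channel results was not tested.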

How the data were processed

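Expression was measured on 12 Affymetrix arrays. The deposited values are on a log2 scale, as the authors derived them by RMA according to the submitters' processing notes; background correction and normalization were left as deposited. RMA compresses folds of dim probe sets, and no detection call was used. Probe sets were named through GEO's platform annotation: of 45141 probe sets, 28898 listed 1 gene symbol, 551 several and 15692 were not listed.

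Group means of the 6 populations were fitted with limma 3.58.1 (R 4.3.3; lmFit, eBayes with trend) over 17097 genes, without blocks, with Benjamini-Hochberg adjustment over all of them. On data simulated for the Mex3a-high minus Mex3a-negative comparison of the Lgr5-low gate over 17097 genes, 40 of 100 genes changed by a log2 fold of 1 and 90 of 100 changed by 2 were called, with 7 false calls. The simulated noise was independent between arrays and took each gene's residual spread from the fit to all arrays. No simulated array stood apart, and replicates did not deviate together, unlike in the data. With 2 arrays a population, the number of arrays limits the precision; the labels call the replicates biological. The same replicate names occur in every population: samples of the same name deviated together in 14 of 15 pairs of populations at a correlation over 0.1 (lowest -0.115, median 0.382), and in 10 of 10 without the array that stood apart, so the replicate block was treated as a pairing and its value is given where it changed a call of a channel or related gene.

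Named genes were every channel gene called, the 12 with the highest mean, the highest mean and the most positive change of each class, and any needed for a count of 5 or fewer. Kcnk5, Kcnk6 in the Lgr5-low gate, Kcnk10, Kcnj3, Kcna1, Kcnu1 and the genes named for another probe set were chosen after their values were seen. The members, the related genes and the marker lists were chosen with earlier results of these data known. Alternatives were the replicate and strip blocks, quantile normalization, common medians, the mean of a gene's probe sets, a filter on low values, no trend, the arrays of a gate only, each probe set on its own, and leaving out each array.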

Additional observations from a re-analysis of the deposited data

Results flagged for a closer look

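Cacna2d1 differed between the Lgr5 gates in its change with Mex3a. The Mex3a-high minus Mex3a-negative change was 3.44 in the Lgr5-low gate and 0.44 in the Lgr5-high gate, and the interaction was 3.00 ± 0.45 (log2; limma, adjusted p = 0.0226), with 2.74 in MR793 and 3.26 in MR820. No population had enough arrays for a test of single outlying arrays.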

How the results depend on the processing

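Alternatives were run on the count of channel genes called in each comparison and on the 10 called gene results. The share of all genes called also moved with the alternative and is not given here for each of them. A larger count alone therefore does not set the channel genes apart from all genes. With each probe set on its own, 2.04% of all genes were called for Mex3a-high minus Mex3a-negative in the Lgr5-low gate. The share was 1.12% for Mex3a-high minus Mex3a-low in that gate and 0.591% for the interaction. Of 200 alternative values of those 10 results, 137 kept their call, 63 lost it and 0 changed sign. For Mex3a-high minus Mex3a-negative in the Lgr5-low gate (3 genes), the count was 7 with the mean of a gene's probe sets, 5 with the arrays of the gate only, 9 with each probe set on its own and 1 to 8 without single arrays: 1 without the Mex3a-high Lgr5-low array of MR793, and 8 without either Mex3a-high Lgr5-high array. For Mex3a-high minus Mex3a-low in that gate (2 genes), it was 5 with the mean of probe sets, 8 with each probe set, 1 with the filter on low values, and 0 to 4 without single arrays: 0 without the Mex3a-high Lgr5-low array of MR793, 4 without either Mex3a-high Lgr5-high array, and 1 without the Mex3a-high Lgr5-low array of MR820 or any single Mex3a-low array of either Lgr5 gate or Mex3a-negative Lgr5-high array. For Lgr5-high minus Lgr5-low (4 genes), it was 0 with the strip as a block, 0 with both blocks, 2 with the filter, and 1 to 61 without single arrays. For the interaction (1 gene), it was 3 with the mean of probe sets, 5 with each probe set, 0 with the filter, which removed Cacna2d1, and 0 to 55 without single arrays. Without the MR820 array of the Mex3a-high Lgr5-high population, which leaves the array that stood apart alone, the counts in the Lgr5-high gate were 75 and 73 (Mex3a-high minus Mex3a-negative and minus Mex3a-low) against 0 with all arrays, while 62.3% and 60.7% of all genes were called; the interaction and Lgr5 counts of 55 and 61 came from that same fit, in which 48.6% and 54.5% of all genes were called. The count above the array median on all 12 arrays (30) was 17 with single-gene probe sets, 12 with 1 probe set a gene and 17 with the mean of probe sets. The replicate block gave 4 genes in the first comparison and 6 between the Lgr5 gates, adding Kcnd3, Scn2b and Kcnq1, and changed no other call of a channel gene. Where no cause is named, the cause was not tested. The number of arrays limits what small changes could be called.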
